A study of Zea mays with 58 samples.

Results

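Zm00001d054057 and Zm00001d054060, taken here as NRT2.1 and NRT2.2, are a pair of neighbouring genes for high-affinity nitrate transporters of maize. They are 2 of the 46335 features of the count table and were chosen by their IDs. The table lists IDs only and the reference table of gene names matched 0 of its 44146 gene model IDs, so which ID is which transporter comes from knowledge of the maize gene models; the reference table has nrt2.1 and nrt2.2 next to each other on chromosome 4. In AGPv4 coordinates, which the count table uses, NRT2.1 lies on chromosome 4 from 245638263 to 245639837 on the plus strand, and NRT2.2 from 245649222 to 245650796 on the minus strand. Their 3' ends face each other across 9384 bases, with 0 annotated features between them. Each model is 1 exon of 1575 bases, a multiple of 3 as a coding sequence alone would be.

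Most NRT2 proteins are nitrate and proton symporters of the plasma membrane that take up nitrate when it is scarce outside the root. They work together with a small partner protein of the NAR2 (NRT3) family. In plants studied so far some of their genes, though not all, are induced when nitrate returns to starved roots. These are held down when reduced nitrogen such as ammonium or glutamine is plentiful.

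Roots of the inbred line B73 were taken from hydroponic seedlings 10 days old that had been without nitrogen for 2 days and from which the endosperm had been cut away. They were moved to Murashige-Skoog medium with 20 mM KNO3 and 20 mM NH4NO3, of whose nitrogen 10% carried the heavy isotope (N), or with 20 mM KCl in their place (noN). The media thus differ in nitrate, ammonium, chloride and total salt, and the N effect below is the difference between them at equal time. Both media were sampled at 9 times after transfer, namely 5, 10, 15 and 20 min, 30 and 45 min, and 60, 90 and 120 min, and time 0 belongs to noN alone, which makes 19 groups of 3 libraries, or 4 for noN at 120 min. Each library pools 3 seedlings and was made by 3' mRNA sequencing. Library totals ran from 1978039 to 3790442 counts. In the 21 noN libraries of 0 to 45 min the counts lay on longer genes (count-weighted mean log2 exon length 11.01 to 11.114) than the other 37 libraries (10.924 to 10.999). What part this had in the comparisons below that join these libraries to others cannot be told apart from the media and the times. No marker of root or shoot could be looked up by name, so the labelled tissue was not checked.

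At the start both genes were at or near 0 counts. At time 0 NRT2.1 had 0, 1 and 0 counts in replicates 1, 2 and 3, and NRT2.2 had 0 in all 3. A count of 0 allows a level of up to 0.852 to 1.47 CPM (counts scaled to a common library size), depending on the library, with 3 counts as the limit and for counting error only. Both genes passed the filter on low counts through their later groups, NRT2.2 through N groups alone. No noN library of NRT2.2 was above 5 counts or 2.2 CPM. In roots taken whole, more RNA per cell and more cells that express a gene cannot be told apart.

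NRT2.1 was above 3 summed counts in N roots from 10 min on. In this medium the 5 min libraries held 0, 1 and 0 counts of it, those of 10 min held 2, 8 and 5, and those of 15 min held 11, 14 and 18. The noN libraries of 15 min had 0, 3 and 0 counts, so that the media no longer overlapped from this time on, whereas they still did at 10 min. Counts in N went on to 17, 26 and 21 after 20 min, then to 52, 127 and 21 after 30 min, and to 92, 70 and 85 after 45 min. The spread at 30 min came from replicate 2, which had the most counts, and replicate 3, which had the fewest.

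From 60 min on the libraries of the 3 times overlapped for NRT2.1 in N. The 60 min libraries held 174, 163 and 33 counts, those of 90 min 206, 119 and 203, and those of 120 min 123, 163 and 179. The group means were 50.6 ± 30.9, 53.2 ± 16.7 and 55.1 ± 10.9 CPM in this order (SD, n = 3 each). Replicate 3 at 60 min stood below both others, at 15.2 CPM against 71.9 and 64.7.

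NRT2.2 had fewer counts than NRT2.1 in every N group from 10 min on, and whether its response began later was not tested. It had 0 counts in every N library at 5 and 10 min, then 2, 1 and 0 counts after 15 min and 2, 5 and 2 after 20 min. The noN libraries of 20 min were all at 0, which made this the first time at which the media did not overlap for NRT2.2. In N the 30 min libraries held 8, 12 and 4 counts and those of 45 min held 13, 10 and 37. There were 52, 71 and 19 counts after 60 min, then 59, 71 and 108 after 90 min, and 66, 120 and 101 after 120 min. The group means of these last 3 times were 19.5 ± 9.87, 23.3 ± 3.56 and 34.2 ± 11.1 CPM (SD, n = 3 each), and replicate 3 was again the lowest library at 60 min, with 8.75 CPM.

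In the order of the 19 group means every group of NRT2.1 overlapped with the next. For NRT2.2 N at 45 min and N at 30 min were the only neighbours in that order whose libraries did not overlap.

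**Figure D1:**
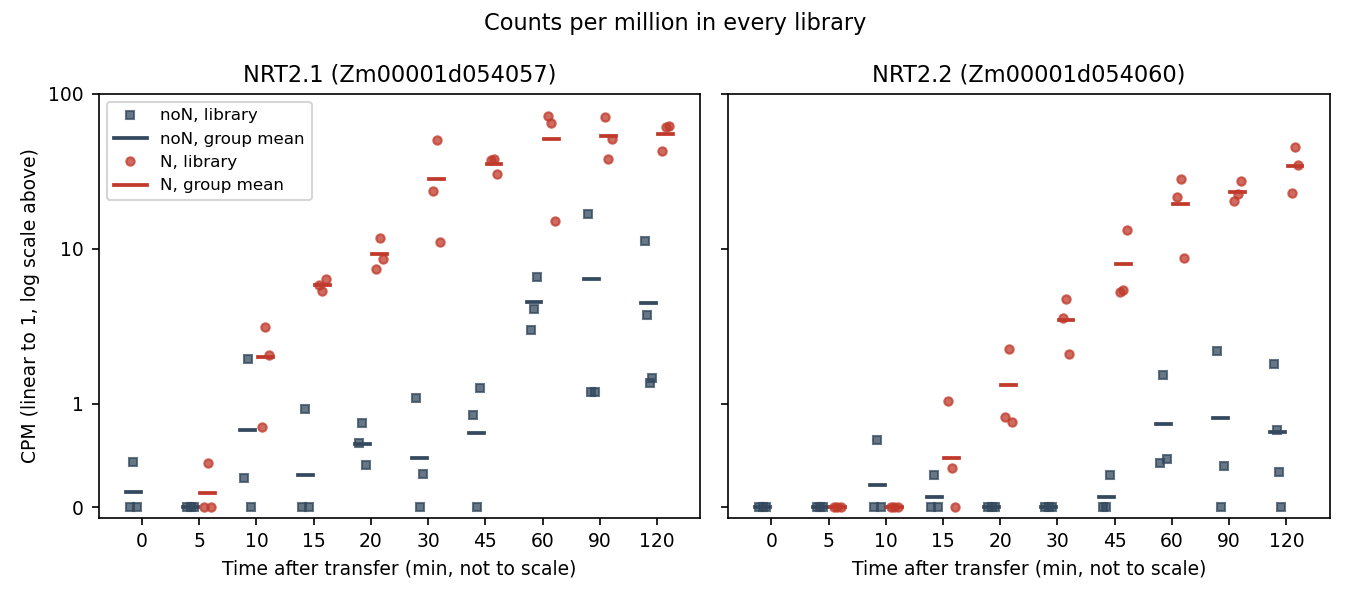
CPM of NRT2.1 (left) and NRT2.2 (right) in each of the 58 libraries by time after transfer, on an axis that is linear up to 1 and logarithmic above; points are libraries, bars group means, red N and dark blue noN. NRT2.1 separates the media from 15 min on and NRT2.2 from 20 min on, and at 60 to 120 min all N libraries lie above the noN libraries of their time.

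The plot of CPM by library also shows both genes in noN roots. In the 21 noN libraries of 0 to 45 min NRT2.1 had 27 counts in all, with 10 libraries at 0 and none above 6 counts. In the 10 noN libraries of 60 to 120 min it had 115 counts, with none at 0. The 60 min libraries held 7, 8 and 14 counts, those of 90 min 38, 3 and 3, and those of 120 min 25, 10, 4 and 3. Replicate 1 was thus by far the highest at 90 min, at 16.7 CPM against 1.19 and 1.2, and also the highest at 120 min.

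NRT2.2 had 4 counts in all in the early noN libraries, where 18 of 21 were at 0, and 18 counts in the 10 later ones, where 2 were at 0. The 60 min libraries held 1, 3 and 1 counts of it, those of 90 min 5, 0 and 1, and those of 120 min 4, 2, 1 and 0. The libraries high for NRT2.1 at 90 and 120 min were the highest for NRT2.2 too.

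Each gene was tested within a fit of all 18872 genes that passed the filter, by edgeR's quasi-likelihood test with Benjamini-Hochberg adjustment over all of them and a threshold of 0.05 on the adjusted p. The N effect on NRT2.1 was not called after 5 min (edgeR adjusted p = 0.7725) or after 10 min, where the ratio of N to noN was 2.62 (95% exact counting interval 1 to 7.58, edgeR adjusted p = 0.5034); replicate 2 of noN held 6 of the 7 noN counts, and without it the ratio was 12.2 (1.87 to 513, edgeR adjusted p = 0.2562). The calls higher in N came to 2.63% and 7.56% of all genes at these times. NRT2.1 was called at 15 min with a ratio of 18 (5.76 to 90.7, edgeR adjusted p = 0.008077), when 14.7% of all genes were called higher in N. All 3 noN counts of 15 min came from replicate 2, without which N was at least 11.8-fold higher (edgeR adjusted p = 0.009122), and without replicate 1 of noN the ratio was 11.5 (edgeR adjusted p = 0.04453). After 20 min the size of the effect in log2 was 3.81 (SE 0.98, edgeR adjusted p = 0.003127), where 16.4% of all genes were called higher. After 30 min it reached 5.75 (SE 0.88, edgeR adjusted p = 4.454e-06), with 12.2% of all genes called higher. After 45 min it was 5.52 (SE 0.79, edgeR adjusted p = 1.103e-06), with 13.4%. Without replicate 1 of noN the value at 30 min was 6.99, without replicate 2 of N it was 5.04, and without replicate 3 of noN the value at 45 min was 6.13. Up to 45 min these contrasts set libraries of differing makeup against each other.

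At 60, 90 and 120 min the compared libraries are alike in makeup. In log2 units NRT2.1 was then higher in N by 3.48 (SE 0.62, edgeR adjusted p = 0.0001963), 3.10 (SE 0.58, edgeR adjusted p = 0.0001836) and 3.65 (SE 0.55, edgeR adjusted p = 5.552e-06). At these times 2.50%, 7.59% and 6.06% of all genes were called higher. Its mean N effect over the 3 times was 3.41 (SE 0.34, edgeR adjusted p = 8.959e-11), a 10.6-fold difference that ranked 28 of 18872 genes from the highest; 14.9% of all genes were called higher in this mean. These sizes depend on replicate 1 of noN at 90 and at 120 min. Without the first the effect was 5.41 at 90 min and 4.18 in the mean, and without the second it was 4.60 at 120 min, all still called.

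The N effect on NRT2.2 was called from 20 min on, at times when 2.50% to 16.4% of all genes were called higher in N. It was not called at 5, 10 and 15 min, where neither medium had more than 3 counts. At 20 min N was at least 3.51-fold higher (edgeR adjusted p = 0.0231) and at 30 min at least 9.91-fold higher (edgeR adjusted p = 0.000955), both bounds against 3 counts over the noN group, which had 0. These bounds take the N counts as exact, so they are not limits of a counting interval. The call at 20 min rests on 9 counts, and leaving out replicate 1 or 3 of noN or replicate 2 of N ended it (highest edgeR adjusted p = 0.09123). Without replicate 3 of noN the bound at 30 min was 6.17, still called. At 45 min the ratio was 82.2 (95% exact counting interval 14.2 to 3301, edgeR adjusted p = 1.9e-05), against 1 noN count. Of the 60 N counts 37 were in replicate 3, without which the ratio was 52 (8.44 to 2141). Without replicate 1 of noN it was 53.7, and without replicate 3 of noN, which held the only count, N was at least 18.5-fold higher, all still called.

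In log2 units the late N effects on NRT2.2 were 4.56 (SE 0.69, edgeR adjusted p = 2.752e-05) after 60 min, 4.74 (SE 0.65, edgeR adjusted p = 3.354e-06) after 90 min and 5.49 (SE 0.59, edgeR adjusted p = 2.714e-08) after 120 min. The mean over these times was 4.93 (SE 0.37, edgeR adjusted p = 1.772e-12), a 30.5-fold difference that ranked 9 of 18872 genes. In this mean 14.9% of all genes were called higher. NRT2.2 passed the filter on low counts only through N groups, where it is high, so its rank among the tested genes depends in part on that. Without replicate 1 of noN at 90 min the effect was 6.56 at that time and 5.54 in the mean. Without replicate 2 of noN at 60 min it was 5.31, and without replicate 1 of noN at 120 min 6.29. Without replicate 2 of noN at 90 min, which had 0 counts, the ratio of scaled counts was 18.8 against 28.8.

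**Figure D2:**
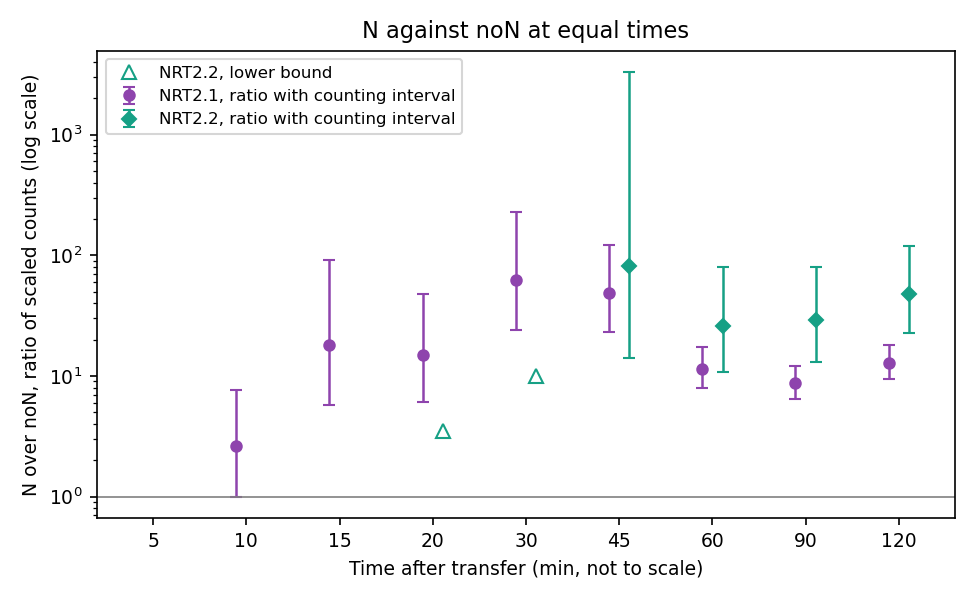
Ratio of scaled counts in N to those in noN at equal time, on a log axis. NRT2.1 is shown as circles and NRT2.2 as diamonds, with 95% exact counting intervals. Open triangles are lower bounds against 3 counts where noN was at 0, with the N counts taken as exact. No ratio is drawn where both media had at most 3 counts. NRT2.1 reads 61.9 at 30 min and 12.9 at 120 min, NRT2.2 82.2 at 45 min and 47.7 at 120 min.

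The ratio of N to noN for NRT2.1 was larger at 30 and 45 min, 61.9 and 48.3, than at 60 to 120 min, 8.7 to 12.9, although its level in N was higher at the later times. Between these periods its mean level in noN moved from at most 0.746 CPM in any group to at least 4.47. The size of this contrast depends on single libraries. Without replicate 1 of noN the ratio was 43.9 (20 to 120) at 90 min and 24.7 (15.2 to 42.7) at 120 min. Without replicate 2 of N the ratio at 30 min was 36.5 (13.7 to 138), and without replicate 1 of noN it was 166 (29.5 to 6590). The noN mean of 90 min rests on replicate 1, at 16.7 CPM against 1.19 and 1.2. Whether the N effect changed with time was tested jointly over the 9 times, and the interaction was not called for NRT2.1 (edgeR adjusted p = 0.3108) or NRT2.2 (edgeR adjusted p = 0.2118), while 39.7% of all genes were called. A fit of limma on the log2 of the authors' quantile normalized values plus 1 called it for both (adjusted p = 0.002307 and 8.717e-09). DESeq2 called the interaction for NRT2.2 (adjusted p = 0.01924). In limma the added value lowers effects at low counts. The N effect of NRT2.2 at 20 min was 2.13 with 1 added and 0.53 with 8. The limma calls therefore cannot decide whether the N effect changed with time. The joint test of any N effect called both genes (edgeR adjusted p = 1.535e-12 and 1.789e-11), as it did 61.6% of all genes.

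Within N roots, where no noN library enters, NRT2.1 was called against N at 5 min from 20 min on, at 6 of 8 times. At 20 min it had 64 counts against 1 (ratio 65.3, 95% exact counting interval 11.3 to 2621, edgeR adjusted p = 0.008838), and 1.79% of all genes were called higher. Without replicate 1 of N at 5 min that call was lost (edgeR adjusted p = 0.08378). At 120 min it had 465 counts against 1, a ratio of 390 (69.6 to 15417, edgeR adjusted p = 6.982e-08), and 12.0% of all genes were called higher. The only count at 5 min was in replicate 2. Without that library NRT2.1 was at least 14.6-fold higher at 20 min and at least 87.1-fold higher at 120 min, both still called, and without replicate 1 of N at 5 min the ratio at 120 min was 248. At 15 min, when 0.525% of all genes were called higher, the ratio of 41.6 was not called by edgeR (adjusted p = 0.1236) and was called by DESeq2 (adjusted p = 0.03588).

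NRT2.2 was called against N at 5 min from 30 min on, at 5 of 8 times. It was at least 8.48-fold higher at 30 min (edgeR adjusted p = 0.003567), when 4.36% of all genes were called higher. At 120 min it was at least 80.1-fold higher (edgeR adjusted p = 1.857e-08). Without replicate 1 of N at 5 min these bounds were 5.39 and 50.9, both still called. Of the 7 steps between neighbouring times from 10 min on, edgeR and DESeq2 called 0 in N for either gene; unadjusted edgeR p-values under 0.05 came from 1 step of NRT2.1 and 2 of NRT2.2. The step with the lowest unadjusted p was that from 20 to 30 min for NRT2.1, 1.62 (SE 0.57, unadjusted p = 0.006555, edgeR adjusted p = 0.2793).

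In noN roots NRT2.1 was called higher than at time 0 at 60, 90 and 120 min (edgeR adjusted p = 0.02476, 0.005374 and 0.01343), when 11.1%, 16.3% and 17.7% of all genes were called higher. It had 29, 44 and 42 counts in these groups against 1 at time 0. Each of these calls was lost when a single library was left out. Leaving out replicate 3 of noN at 60 min gave an edgeR adjusted p of 0.08801 at that time, and leaving out replicate 1 at 90 min gave 0.2759 at that time. At 120 min the loss of replicate 1 gave 0.08988, and the calls at 60 and 120 min were also lost without replicate 1 or 3 of time 0. The step from 45 to 60 min, at which the makeup of the noN libraries changes, was 2.57 (SE 1.04, edgeR adjusted p = 0.06789), with 12.2% of all genes called higher, and was called by DESeq2 (adjusted p = 0.03448).

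For NRT2.2 edgeR called 0 of the 9 noN times against time 0, with unadjusted p-values under 0.05 at 3 times. The lowest adjusted p was 0.07553 at 90 min, and DESeq2 called that time (adjusted p = 0.04939).

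The balance between the genes moved as the response went on. In N the share of NRT2.2 in the counts of both genes was 6.52% after 15 min (3 of 46 counts, 95% exact binomial interval 1.37 to 17.9), 12.3% after 20 min (5.8 to 22.1) and 10.7% after 30 min (6.99 to 15.5). These intervals, and those of the shares below, cover counting error only and leave out the spread between libraries. Without replicate 1 the share at 15 min was 3.03%, and without replicate 3 it was 10.7%. The 45 min libraries together gave 19.5% (15.3 to 24.4), with 12.4%, 12.5% and 30.3% in replicates 1, 2 and 3, and 12.4% (8.05 to 18.1) without replicate 3. Those of 60 min gave 27.7% (23.9 to 31.8). With 31.1% after 90 min (27.8 to 34.5) and 38.2% after 120 min (287 of 752 counts, 34.7 to 41.7) the share was highest at the end. Every library of 120 min, at 34.9% to 42.4%, lay above every library of 30 min, at 8.63% to 16%. Replicate 3 at 60 min, low for both genes, was at 36.5%, the highest share of its group.

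The log2 ratio of NRT2.2 to NRT2.1 counts (each plus 0.5) was -2.49 on average over the 6 N libraries of 30 and 45 min and -0.93 over the 6 of 90 and 120 min. The difference of 1.56 had an exact two-sided permutation p of 0.004329 over 924 arrangements; these times were chosen after the values had been seen. A ratio within a library does not change with how libraries are scaled. Reads that fit both genes were not counted, since the authors' counting did not take up reads with several alignments, and 3' reads beyond the end of a model were not counted either. The share is therefore one of countable reads, and which gene makes more transcript is not settled by it.

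**Figure D3:**
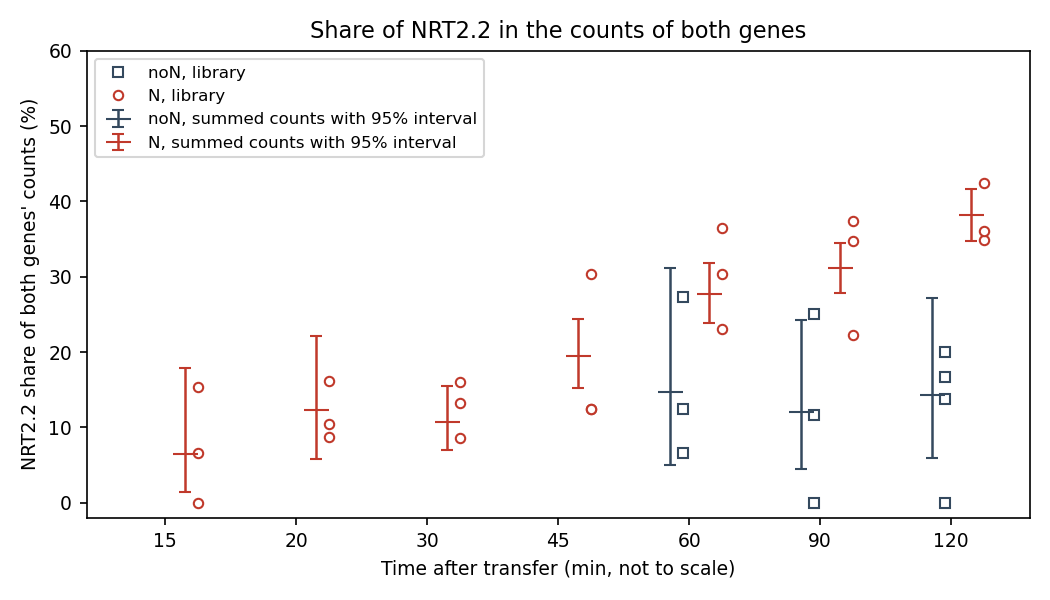
Share of NRT2.2 in the counts of both genes (%) by time after transfer, for groups with at least 20 counts of both genes; horizontal marks are summed counts with 95% exact binomial intervals, open symbols single libraries, red N and dark blue noN. The share in N goes from 10.7% at 30 min to 38.2% at 120 min, and in noN it lies between 12% and 14.7% at 60 to 120 min.

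At 60 to 120 min the share differed between the media. Summed over these times, NRT2.2 made up 32.9% of the counts of both genes in N (667 of 2030, 95% exact binomial interval 30.8 to 34.9) and 13.5% in noN (18 of 133, 8.22 to 20.5). Of the 133 noN counts 43 were in replicate 1 at 90 min (share 11.6%) and 29 in replicate 1 at 120 min (share 13.8%). The mean log2 ratio was -1.03 in the 9 N libraries and -2.27 in the 10 noN libraries, a difference of 1.24 with an exact two-sided permutation p of 0.001571 when media were permuted within each time. With 3 in place of 0.5 added to each count it was 0.34 and was not called (exact permutation p = 0.2119); most noN counts of NRT2.2 are themselves below 3. The difference of the shares of summed counts, which needs no added count and was set up after the values had been seen, was 19.3 percentage points (exact permutation p = 0.0002143). At 5 to 45 min the media could not be compared in this way, because 8 of 18 noN libraries had no count of either gene and the added 0.5 sets their ratio.

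Across the 19 group means of log2 CPM the genes correlated with each other at r = 0.931, and at 0.921 over the 9 N groups. Of the 18870 other genes tested, 97 had an r of at least 0.9 with the mean standardised course of the pair, and 1 had an r of at most -0.9. Each r is a description over groups that share their scaling and mix both media with all times, and the early and late noN groups differ in makeup.

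The ID most like the pair was Zm00001d038291 (chromosome 6, 153560369 to 153560833, minus strand), with r = 0.988. In N its group means were 0.837 ± 0.374 CPM (SD, n = 3 each) after 5 min, 14.7 ± 0.624 after 30 min and 70.4 ± 12.6 after 120 min, and in noN no group mean was above 2.71 ± 1.24. Zm00001d049187 (chromosome 4, 19755800 to 19757563, minus strand) came next with r = 0.986. Its N groups went from 50.2 ± 8.47 CPM after 5 min up to 1759 ± 149 after 120 min.

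In replicate 3 of N at 60 min, the lowest of its group for both transporters, Zm00001d038291 was at 66.3 CPM against 49.6 and 66.3. Zm00001d049187 had its lowest value of the group there too, 1338 CPM against 1573 and 1718. In replicate 1 of noN at 90 min, high for both transporters, Zm00001d038291 was at 2.2 CPM against 0.795 and 0.402. Zm00001d049187 was there at 133 CPM against 67.6 and 74.3. Replicate 1 was thus the highest noN library of 90 min for all 4 genes, and the span from the lowest to the highest library was 14-fold for NRT2.1.

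The courses most opposed to the pair were those of Zm00001d003945 (chromosome 2, 71037398 to 71040700, minus strand; r = -0.904) and Zm00001d034388 (chromosome 1, 291662839 to 291670088, minus strand; r = -0.892). Zm00001d003945 went down in N from 94.8 ± 7.99 (5 min) to 44.6 ± 2.87 CPM (120 min; SD, n = 3 each). Zm00001d034388 went from 129 ± 9.2 to 56.7 ± 12.5 CPM. In noN Zm00001d034388 also went down, from 149 ± 9.7 (5 min) to 102 ± 18.6 CPM (120 min, n = 4). Zm00001d003945 was at 88.2 ± 17.9 and 70.5 ± 13.1 CPM in these noN groups. As these 4 IDs were chosen for their courses, their levels are given with no test. The files give no names for these 4 IDs.

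**Figure D4:**
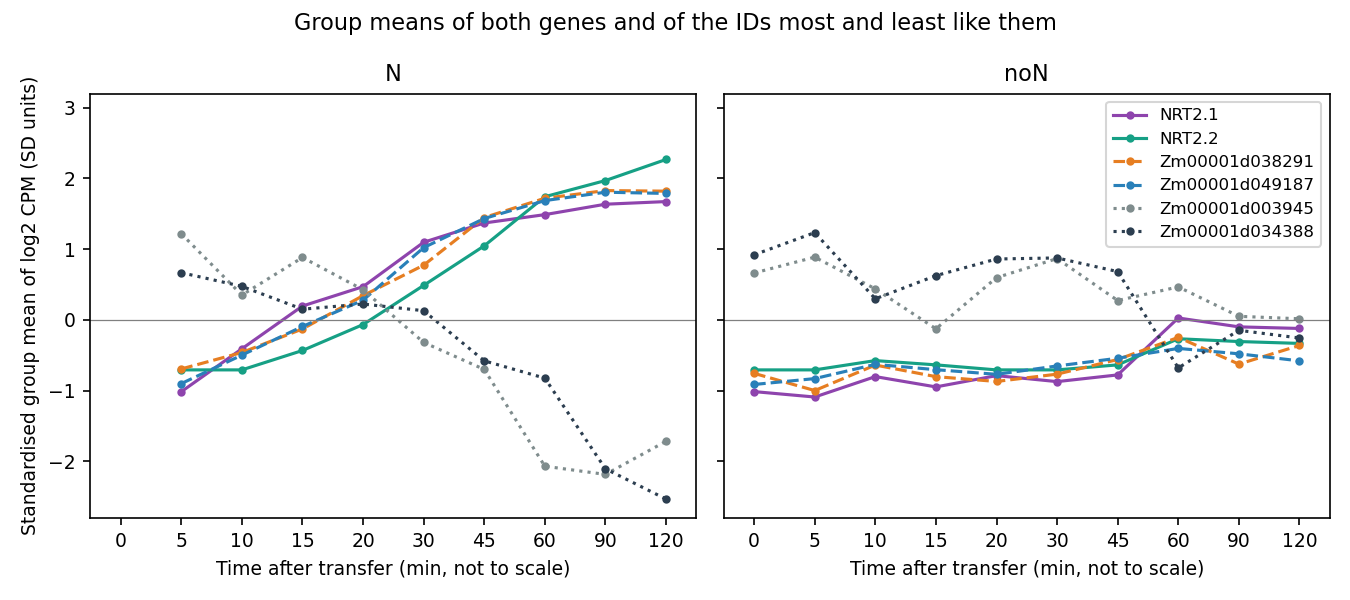
Standardised group means of log2 CPM (SD units over the 19 groups) of NRT2.1, NRT2.2 and the 4 IDs named by their likeness, by time after transfer in N (left) and noN (right). Both transporters and the most like IDs climb together in N, the least like IDs drop, and in noN the transporters stay below or near 0.

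Of the 3 nearest features on each side, 2 had enough counts to be tested and neither was called in the mean N effect at 60 to 120 min. These were Zm00001d054055, 4968 bases from NRT2.1, with 0.08 (SE 0.26, edgeR adjusted p = 0.8493), and Zm00001d027043, 2806 bases from NRT2.2, with -0.25 (SE 0.11, edgeR adjusted p = 0.07542). In the earlier period, where the media differ in library makeup, Zm00001d054055 was called in the mean N effect at 5 to 45 min (0.63, SE 0.19, edgeR adjusted p = 0.004268) and Zm00001d027043 at 45 min alone of the single times (-0.69, SE 0.19, edgeR adjusted p = 0.006256). In the mean at 5 to 45 min a large part of all genes was called, and the share is not given here. The other 4 features had between 1 and 160 counts over all 58 libraries.

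The authors' deposited table of network weights lists NRT2.2 among its 2294 targets and does not list NRT2.1. All 196 regulators have a weight for NRT2.2 in the authors' deposited table, 133 of them above 0, and the highest is 0.114 for Zm00001d022225. By this highest weight NRT2.2 is number 2264 of the 2294 targets in the authors' deposited table, where the median target has a highest weight of 0.693. In the counts Zm00001d022225 was higher in N over 60 to 120 min by a log2 change of 1.21 (SE 0.13, edgeR adjusted p = 9.99e-10). At 120 min alone the change was 0.53 (SE 0.22, edgeR adjusted p = 0.1082) and was not called. Its N groups stood at 33.7 ± 8.39 CPM after 5 min, 103 ± 3.55 after 45 min and 34.7 ± 5.58 after 120 min (SD, n = 3 each), the time at which NRT2.2 had its highest mean.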

How the data were processed

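The submitters' processing notes name STAR 2.7.6a, fastp 0.21.0 and UMI-tools 1.1.1, without order or role. Counting was by featureCounts 2.0.1 on the sense strand of AGPv4 genes, per the file headers, which gave the deposited whole-number count of each gene after UMI deduplication. A further table of the authors, a score rounded to whole numbers, is quantile normalized over 57 of the 58 libraries. Their network weights, also a deposited score, were made by steps not stated here.

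Genes with enough counts in the 19 groups (filterByExpr, minimum count 10, minimum total 15) were scaled by TMM and fitted with edgeR 4.0.16 in R 4.3.3, 1 mean per group, 39 residual degrees of freedom. CPM are TMM-scaled counts. Ratios between groups are of summed scaled counts, with exact intervals that cover counting error only. Ratios of the genes were compared by exact permutation. DESeq2 1.42.0 and limma 3.58.1 gave alternatives, as did other scaling, no filter and leaving out each library. Deviations of same-numbered libraries of both media from their groups correlated with r from -0.288 to 0.255 (median 0.0128, over 0.1 in 7 of 27 pairs). All pairs of 5 and 10 min had an r above 0, from 0.0252 to 0.255. Replicates pool separate seedlings. Both genes and the tests were chosen with earlier results of these data known. IDs beyond the pair are named by likeness of course over 19 groups, by the highest network weight, or as neighbours that were tested. No sequence is printed.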

Additional observations from a re-analysis of the deposited data

How the results depend on the processing

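Of 815 results under settings that leave out no single library, 797 kept their side of the threshold. Of 859 without 1 library, 846 did. Direction was not compared for joint tests, for results with no fold, or for results called under neither setting. Where it was compared, it did not reverse. The N effect on NRT2.2 at 5 min, with 0 counts in both media, is among these results and could not change. The N effect was called at 7 times for NRT2.1 in all fits that left out no single library. For NRT2.2 it was called at 6 times, at 5 with limma on quantile normalized values plus 8 and at 4 when each time was fitted alone, where NRT2.2 could not be tested at 5 to 30 min. The mean N effect at 60 to 120 min was 2.90 to 3.72 for NRT2.1 and 2.82 to 5.01 for NRT2.2 over the settings other than leaving out libraries. Without replicate 3 of N at 60 min and replicate 1 of noN at 90 min together, an alternative chosen after the values were seen, it was 4.33 and 5.66. The call of NRT2.1 in noN at 90 min against time 0 was then lost (edgeR adjusted p = 0.2225).

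The interaction of N and time was called by limma on quantile normalized values plus 1 (adjusted p = 0.002307 for NRT2.1, 8.717e-09 for NRT2.2) and plus 8 (1.2e-05 and 7.598e-13), and by DESeq2 for NRT2.2 (0.01924). DESeq2 and limma plus 1 each called 1 noN time for NRT2.2 against time 0 and 1 step for NRT2.1, that from 45 to 60 min in noN, where the edgeR fit called 0; without both libraries that stand apart edgeR called 1 step too. In limma the added 1 or 8 itself lowers effects at low counts, and the cause of these differences was not tested. The mean N effect of NRT2.1 at 5 to 45 min was called (edgeR unadjusted p = 0.005703, edgeR adjusted p = 0.01123). A large part of all genes was called in this mean too, since adjustment over all of them raised p so little. Without 1 library the edgeR adjusted p of NRT2.1 ranged from 0.007692 to 0.9999, and 1 of 36 fits changed the call. That fit left out replicate 2 of N at 5 min, the only N library of that time with a count. Both 5 min groups then held 0 counts. For NRT2.2 this mean is not given. NRT2.2 had at most 3 counts in either medium at 5, 10 and 15 min. With 3 added to each count, the log2 ratio of the genes at 60 to 120 min differed between the media by 0.34. This was not called (exact permutation p = 0.2119). With the replicate number as a block (replicate block) the difference of that ratio was 1.17 (exact permutation p = 0.003906), and no call of the N effect was changed. Depth limits all values of 0 to 3 counts.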
